A study of Homo sapiens with 10 samples.

Results

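The 10 libraries of this RNA-seq series fall into 2 sets by their replicate number, and what is described here is how replicates 4 and 5 differ from replicates 1 to 3. The division uses the replicate numbers alone: 6 libraries carry the numbers 1 to 3 (3 parental and 3 knockout) and 4 carry the numbers 4 and 5 (2 parental and 2 knockout), so all 10 of 10 libraries enter. Both genotypes are RPE p53-/- cells, a human epithelial line labelled as coming from the pigmented epithelium of the retina and lacking the tumour suppressor p53. The parental control carries no other labelled change, and the other genotype is labelled a knockout of CCAR1, a coactivator and splicing factor. All libraries were given 1 protocol in the labels, without treatment: growth in DMEM/F12 with fetal bovine serum, column-purified RNA with DNase, enrichment of poly(A) RNA on oligo(dT) beads, NEBNext Ultra II libraries and an Illumina NovaSeq. Nothing in the labels tells if the replicates came from separate cultures or the knockout from a single clone, or that replicates 4 and 5 were made or sequenced apart, so p-values measure only the spread between these libraries, which may be technical.

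How much of an RNA reaches a count table depends on the cell and, as general background, on the preparation. Oligo(dT) beads keep messenger RNAs with a tail and lose most transcripts without one, such as the replication-dependent histone mRNAs, which end in a stem-loop. Heating breaks long RNAs into pieces, PCR copies fragments of middling GC content (the share of G and C bases) more readily than extreme ones, and short RNAs give few fragments of the size that a library keeps. The classes below differ in length, GC content, tail, compartment or tissue; whether any of these steps differed between the sets was not tested.

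The sets differed in depth by several times: replicates 1 to 3 held 52595504 to 65201972 counts per library and replicates 4 and 5 held 320578531 to 385449250, and 30156 to 30633 genes against 37131 to 38469 had at least 1 count after rounding. Depth therefore cannot be told apart from the set as such. Levels below are in counts per scaled 1e+06 counts of the library (CPM), and the test of every gene was repeated with every library thinned to the smallest total. CCAR1 itself (chr10:68721012-68792377, GRCh38) stood at 126, 133 and 135 CPM in parental replicates 1 to 3 against 173 and 174 in replicates 4 and 5, and 92.2, 95.35 and 88.1 against 125 and 124 in the knockout. It was thus lower in the knockout within each set, with mRNA still counted in all 5 knockout libraries, and higher in replicates 4 and 5 within each genotype (log2 difference 0.42, SE 0.034, edgeR adjusted p = 9.78e-08). Of 16 listed genes of the retinal pigment epithelium that are in the table, 12 passed the filter on low counts. The keratins KRT18 and KRT8 averaged 214 and 194 CPM in replicates 1 to 3 and 178 and 128 in replicates 4 and 5, and the transcription factors MITF and OTX2 averaged 33.7 and 13.03 against 46.1 and 14.8. RPE65 and RLBP1, which serve the visual cycle, and TYR and DCT, which make pigment, did not pass the filter, so these defining markers of the differentiated tissue were at or near 0.

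In all, 20830 genes were tested with genotype as a term. Every difference below is the log2 of replicates 4 and 5 over replicates 1 to 3, so that a positive value means higher in replicates 4 and 5. At an adjusted p under 0.05 (quasi-likelihood test in edgeR, Benjamini-Hochberg adjustment), 6699 genes were higher in replicates 4 and 5 and 7094 were lower, which is 32.2% and 34.1% of the genes tested. Of these, 408 were higher and 1590 lower by at least 2-fold. The median absolute difference over all genes tested was 0.36, and the spread between replicates was low (common biological coefficient of variation 0.0717). Thinning all libraries to the smallest total left 12662 genes called, against 13793 at full depth. Tested for each genotype, in a common fit with a shared spread, 26.9% of genes were higher and 27.6% lower among the parental libraries. Among the knockout libraries 28% were higher and 32% lower. These shares are the background against which every class below is to be read. In 59.4% of the genes tested the sets did not overlap in either genotype, so lack of overlap in a named gene is usual here.

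GC content parted the sets more than span, exon length or exon number did. Among 14643 protein-coding genes, ordered by the GC content of their longest annotated transcript and cut into quintiles, the quintile with the least GC (30.2 to 41.0%) had a median difference of 0.43, with 2333 genes higher and 158 lower of 2929. The quintile with the most GC (58.4 to 74.7%) had a median of -0.50, with 22 higher and 2555 lower of 2928. The medians of the quintiles between them were 0.25, 0.03 and -0.25, falling in the order of GC content. Both genotypes gave the same order: 0.42 to -0.44 from the first to the last quintile in the parental libraries, and 0.43 to -0.56 in the knockout. Across genes, which are not independent replicates and which share the same libraries, Spearman's rho between GC content and the difference was -0.71 (parental -0.71, knockout -0.68).

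**Figure D1:**
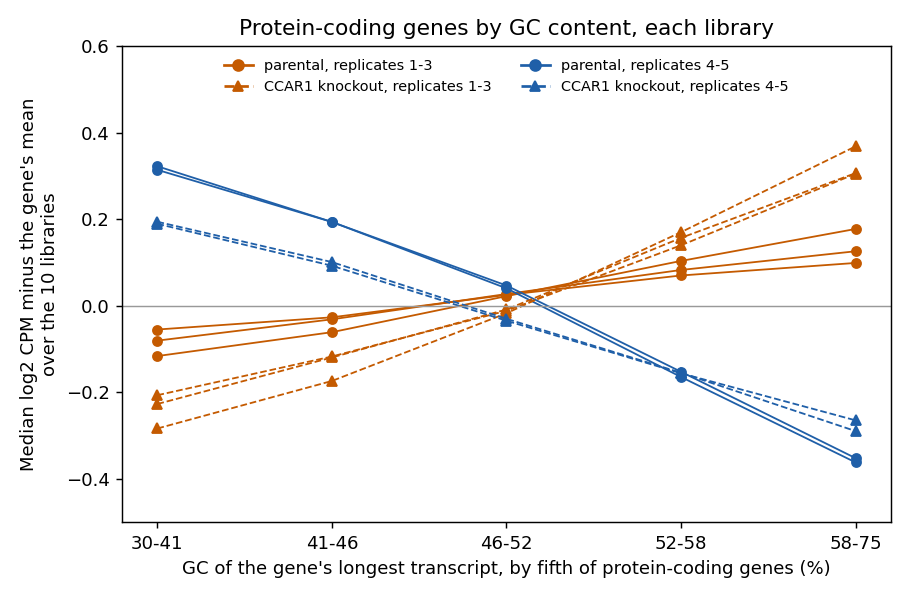
Median log2 CPM minus each gene's mean over the 10 libraries (y axis) for the quintiles of protein-coding genes by transcript GC content (x axis, %), with 1 line per library, circles for parental and triangles for knockout, orange for replicates 1 to 3 and blue for replicates 4 and 5. In all 4 libraries of replicates 4 and 5 the quintile with the least GC lies above the quintile with the most GC, and in all 6 libraries of replicates 1 to 3 the order is the opposite.

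The sequences below show how far apart these quintiles are in base composition. They are the 3 genes with the smallest adjusted p among the described genes of the least-GC quintile and the 3 of the most-GC quintile, each by 120 bases of coding exon whose GC content is nearest to that of its whole transcript, written 5′ to 3′ on the gene's strand (GRCh38, all on the plus strand) with G and C in capitals.

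CASP8AP2: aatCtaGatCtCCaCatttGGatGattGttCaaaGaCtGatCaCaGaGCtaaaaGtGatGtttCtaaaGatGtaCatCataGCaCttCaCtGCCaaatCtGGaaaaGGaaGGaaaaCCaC
HMMR: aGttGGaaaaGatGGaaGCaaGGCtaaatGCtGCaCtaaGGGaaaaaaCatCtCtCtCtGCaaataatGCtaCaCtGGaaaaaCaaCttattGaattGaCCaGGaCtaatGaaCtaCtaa
TTK: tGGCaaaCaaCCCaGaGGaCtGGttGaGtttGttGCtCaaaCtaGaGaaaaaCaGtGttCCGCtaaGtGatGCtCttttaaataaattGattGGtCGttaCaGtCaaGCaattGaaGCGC
IER2: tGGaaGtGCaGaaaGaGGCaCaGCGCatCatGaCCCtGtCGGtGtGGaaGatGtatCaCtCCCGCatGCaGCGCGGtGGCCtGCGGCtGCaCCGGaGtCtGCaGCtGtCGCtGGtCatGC
NDUFS7: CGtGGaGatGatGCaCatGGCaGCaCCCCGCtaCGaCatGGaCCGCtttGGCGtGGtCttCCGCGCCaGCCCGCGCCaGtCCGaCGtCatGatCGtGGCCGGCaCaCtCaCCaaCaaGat
TM7SF2: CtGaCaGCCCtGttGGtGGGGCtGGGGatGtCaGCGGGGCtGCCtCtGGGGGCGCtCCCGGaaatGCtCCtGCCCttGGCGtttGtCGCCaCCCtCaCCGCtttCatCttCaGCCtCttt

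The first 3 come from exon 7 of 9 of CASP8AP2 (chr6:89862203-89862322), exon 5 of 18 of HMMR (chr5:163469702-163469821) and exon 3 of 22 of TTK (chr6:80007842-80007961), and hold 45, 44 and 49 G or C bases. The last 3 come from the only exon of IER2 (chr19:13153188-13153307), exon 5 of 7 of NDUFS7 (chr19:1390912-1391031) and exon 4 of 10 of TM7SF2 (chr11:65113237-65113356), and hold 74, 76 and 77. HMMR, a hyaluronan receptor that also binds the mitotic spindle, stood at 87.7, 87.4 and 83.5 CPM in parental replicates 1 to 3 against 127 and 130 in replicates 4 and 5, and 71.99, 72.8 and 67.1 against 105.5 and 107 in the knockout. TTK, a spindle checkpoint kinase, stood at 39.2, 40.6 and 39.98 CPM in parental replicates 1 to 3 against 62.5 and 62.2 in replicates 4 and 5, and 26.9, 27.04 and 23.55 against 43.1 and 43.4 in the knockout. For both, every library of replicates 4 and 5 lay above every library of replicates 1 to 3 (log2 difference 0.58, SE 0.034, edgeR adjusted p = 1.2e-08 for HMMR, and 0.69 for TTK). IER2, an immediate early gene without introns, stood at 108.5, 101 and 105 CPM in parental replicates 1 to 3 against 74.6 and 75.4 in replicates 4 and 5, and 113, 110.5 and 115 against 77.8 and 75.9 in the knockout. TM7SF2, a sterol reductase of cholesterol synthesis, stood at 6.345, 6.305 and 6.44 CPM in parental replicates 1 to 3 against 3.79 and 3.74 in replicates 4 and 5, and 6.025, 5.83 and 6.65 against 3.203 and 3.12 in the knockout. For these G- and C-rich genes the order was the reverse, again without overlap in either genotype (log2 difference -0.52 for IER2 and -0.86 for TM7SF2).

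The shift can be read from each library as a whole. Weighted by counts, the mean transcript GC content of protein-coding genes was 50.7, 50.4 and 50.5% in parental replicates 1 to 3 against 49.1 and 49.1% in replicates 4 and 5, and 50.9, 50.9 and 51.04% against 49.3 and 49.3% in the knockout. The means were 50.7% ± 0.26 (SD, n = 6) and 49.2% ± 0.12 (SD, n = 4). The count-weighted exon length of a gene (the summed length of its annotated exons) was 5.91, 5.93 and 5.92 kb against 6.25 and 6.20 kb in the parental libraries, and 5.84, 5.68 and 5.63 kb against 6.24 and 6.27 kb in the knockout, with means of 5.82 kb ± 0.13 (SD, n = 6) and 6.24 kb ± 0.030 (SD, n = 4). The sets did not overlap in either measure, and each gave p = 0.01 in a two-sided exact permutation test of the set labels within genotype, the smallest value that its 100 arrangements allow. The spread between libraries was wider in replicates 1 to 3, where knockout replicates 2 and 3 lay lowest in length.

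**Figure D2:**
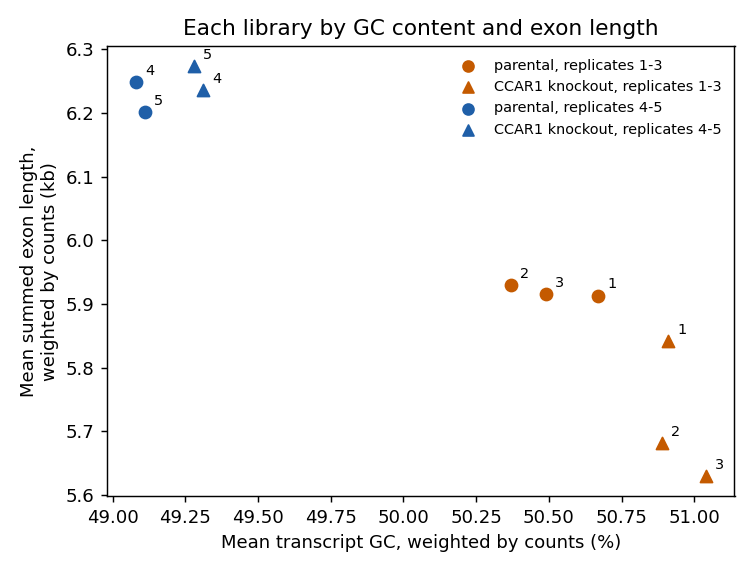
Count-weighted mean GC content (x axis, %) against count-weighted mean exon length (y axis, kb) of protein-coding genes, 1 point per library labelled by its replicate number, circles parental and triangles knockout. The 4 libraries of replicates 4 and 5 lie together at 49.1 to 49.3% and 6.20 to 6.27 kb, apart from the 6 others at 50.4 to 51.0% and 5.63 to 5.93 kb.

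Long and intron-rich genes were higher in replicates 4 and 5 and short ones lower. Protein-coding genes with more than 40 exons had a median difference of 0.31, with 174 higher and 58 lower of 303, and genes with 1 exon a median of -0.32, with 44 higher and 140 lower of 268. By genomic span the median went from -0.40 under 10 kb (242 higher and 1929 lower of 2802) to 0.24 over 300 kb (316 higher and 82 lower of 594). By exon length it went from -0.56 under 1 kb (14 higher and 144 lower of 248) to 0.26 over 8 kb (1867 higher and 614 lower of 3142). Spearman's rho across genes was 0.44 with span, 0.39 with exon length and 0.22 with exon number.

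These properties overlap, since short genes tend to be G- and C-rich (rho between GC content and exon length -0.29). Within the least-GC quintile the median still went from 0.15 for genes of 1 to 2 kb (83 genes) to 0.52 for genes over 8 kb (981 genes). Within the most-GC quintile it went from -0.85 under 1 kb (101 genes) to -0.31 over 8 kb (281 genes). In each length bin the median fell from the first GC quintile to the last, and in each quintile it climbed from the shortest bin to the longest, apart from the 21 genes under 1 kb in the second quintile. The bin under 1 kb of the least-GC quintile held only 13 genes. When the median difference of genes of like GC content was taken off each gene, an adjustment chosen after these differences had been seen, genes with more than 40 exons kept a median of 0.29. Those spanning under 10 kb moved to -0.12, those over 300 kb to 0.09, those with exon length under 1 kb to -0.33 and those over 8 kb to 0.12.

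**Figure D3:**
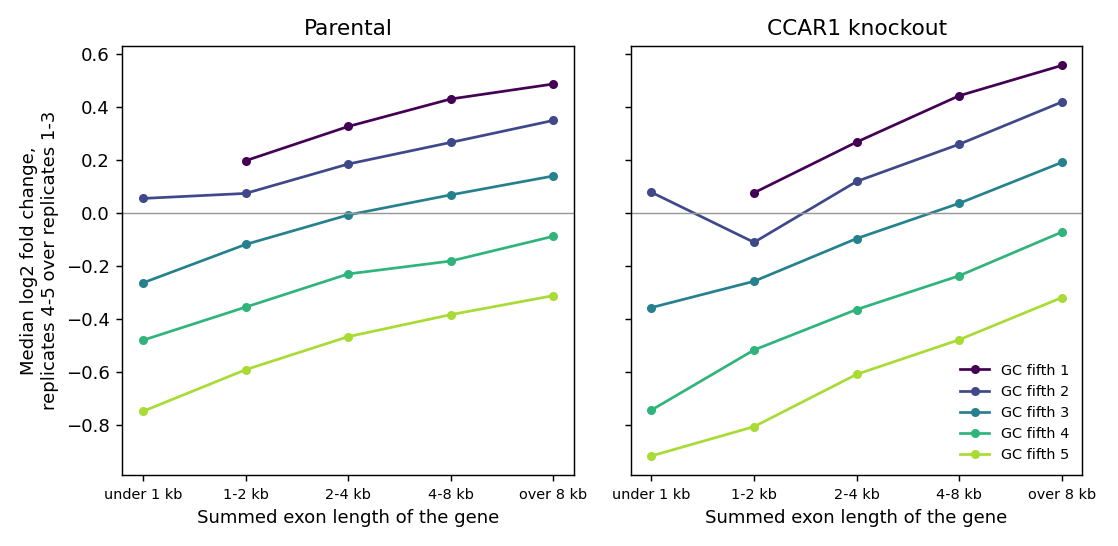
Median log2 difference (replicates 4 and 5 over replicates 1 to 3, y axis) of protein-coding genes by summed exon length (x axis, bins in kb), with 1 line for each quintile of GC content (quintile 1 has the least GC), parental libraries on the left and knockout on the right, bins of at least 20 genes. The lines keep the order of GC content above 1 kb and climb with length, from 0.20 to 0.49 (parental) and from 0.08 to 0.56 (knockout) in the least-GC quintile, with the exception of the second quintile under 1 kb in the knockout.

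A list of 67 giant and many-exon genes, of which 66 were tested, shows the same in named genes. Of the 66, 52 were higher in replicates 4 and 5, 8 were lower and 6 did not pass. The median was 0.49 (0.42 after the GC adjustment) beside -0.01 over all genes. The summed level of the list overlapped between the sets in the parental libraries, at 17580 to 19110 against 18460 to 18690 CPM. Only in the knockout was the sum higher in replicates 4 and 5, at 17120 to 18900 against 21210 to 22610 CPM. CENPE, the kinetochore motor (53 exons), stood at 75.2, 78.02 and 69.9 CPM in parental replicates 1 to 3 against 126 and 127.5 in replicates 4 and 5, and 60.4, 54.5 and 53.2 against 116 and 120 in the knockout. NIPBL, the cohesin loader (47 exons), stood at 53.7, 58.8 and 56.3 CPM in parental replicates 1 to 3 against 90.8 and 89.4 in replicates 4 and 5, and 49.8, 45.6 and 45.4 against 89.96 and 93.8 in the knockout. Neither gene's sets overlapped in either genotype (log2 difference 0.92, SE 0.058, edgeR adjusted p = 2.2e-08 for CENPE, 0.82 for NIPBL). VPS13C, which bridges membranes for lipid transfer, differed by 0.98, and the microcephaly gene ASPM by 0.91. Among those that were lower, RYR1, NEB and TTN are giant genes of striated muscle, taken up with the other-tissue genes below, and COL7A1, PLEC, FLNA and HSPG2 differed by only -0.40 to -0.19. The call for FLNA, the actin-binding filamin, was lost with scaling by library size alone (-0.15), without the filter on low counts (-0.13) and without parental replicate 4 (-0.15) or parental replicate 5 (-0.16). The 40 small secreted and short intronless genes, with 36 tested, went the other way, with 4 higher, 27 lower and a median of -0.54 that shrank to -0.11 after the GC adjustment.

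Messenger RNAs for the cytosolic ribosome were lower in replicates 4 and 5. All 79 listed ribosomal protein genes were tested, and 62 were lower, 1 was higher and 16 did not pass, with a median difference of -0.41 (parental -0.30, knockout -0.50). Together they took 6.30, 6.52 and 6.35% of all counts in parental replicates 1 to 3 against 5.09 and 5.38% in replicates 4 and 5, and 6.83, 7.86 and 8.38% against 5.724 and 5.725% in the knockout. The sets did not overlap within a genotype, and knockout replicates 2 and 3 stood above all others. The GC content of their longest annotated transcripts was close to that of protein-coding genes in general (median 48.0 against 48.7%). The GC adjustment, which uses this value, left the median at -0.38. Which transcripts of these genes the cells express was not tested. Many of these genes have processed pseudogenes of near-identical sequence, between which the deposited estimates may split reads.

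RPL28, a protein of the large subunit (chr19:55385345-55403250), stood at 967, 886 and 918 CPM in parental replicates 1 to 3 against 560 and 567 in replicates 4 and 5, and 1076, 1219 and 1316 against 590 and 592 in the knockout (log2 difference -0.87, SE 0.068, edgeR adjusted p = 9.15e-08). RPS16, of the small subunit, stood at 967, 962.5 and 951.5 CPM in parental replicates 1 to 3 against 566 and 603 in replicates 4 and 5, and 906, 1067 and 1173 against 531 and 532 in the knockout (-0.85). RPL13A, among the most abundant of the list, stood at 3217, 3074 and 3221 CPM in parental replicates 1 to 3 against 2181 and 2285 in replicates 4 and 5, and 3858, 4263 and 4543 against 2377 and 2387 in the knockout (-0.66). In all of these, replicates 4 and 5 lay below replicates 1 to 3 in both genotypes, with the widest spread among the knockout's replicates 1 to 3. RPS3A, of the small subunit and with 41.0% GC among the A- and T-rich members, was the single gene that was higher, at 624, 702 and 650 CPM in parental replicates 1 to 3 against 774 and 838 in replicates 4 and 5, and 648, 787 and 816 against 875 and 871 in the knockout (log2 difference 0.26, SE 0.06), and its GC-adjusted difference was -0.09.

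Of the mitochondrial classes, the nuclear genes were mostly lower in replicates 4 and 5, and the classes encoded by mitochondrial DNA were not alike. Of 78 nuclear genes for subunits of oxidative phosphorylation, 58 were lower in replicates 4 and 5, 7 were higher and 13 did not pass, with a median of -0.43 (parental -0.34, knockout -0.50, GC-adjusted -0.39). COX4I1, a subunit of cytochrome c oxidase, stood at 237, 230 and 236 CPM in parental replicates 1 to 3 against 165 and 174 in replicates 4 and 5, and 269, 301.5 and 344.5 against 179 and 178 in the knockout (-0.62). NDUFS7, the complex I subunit whose exon is shown above, stood at 71.1, 62.1 and 68.15 CPM in parental replicates 1 to 3 against 40.6 and 41.35 in replicates 4 and 5, and 76.3, 84.01 and 86.2 against 41.6 and 40.7 in the knockout (-0.85). NDUFS1, the largest subunit of complex I, went the other way, at 94.85, 93.7 and 93.6 CPM in parental replicates 1 to 3 against 118 and 117 in replicates 4 and 5, and 107, 102 and 94.55 against 134 and 136 in the knockout (0.37). The groups did not overlap in either genotype in any of these genes, as in 59.4% of all genes tested. The remaining 6 that were higher (UQCRC2, NDUFA5, ATP5F1A, ATP5F1C, SDHD and ATP5PB) differed by 0.09 to 0.17. Of 77 tested mitochondrial ribosomal protein genes, which are also nuclear, 51 were lower and 15 higher (median -0.24, parental -0.12, knockout -0.35). MRPL4 and MRPS34 differed by -0.67 and -0.66, and MRPL42 and MRPL19 by 0.50 and 0.44.

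The 13 proteins encoded by mitochondrial DNA were not lower as a class: 7 were higher, 1 was lower and 5 did not pass, with a median of 0.15 (parental 0.11, knockout 0.13) that turned to -0.05 after the GC adjustment. They took 2.23, 2.70 and 2.51% of counts in parental replicates 1 to 3 against 2.74 and 2.79% in replicates 4 and 5, and 2.32, 2.43 and 2.64% against 3.07 and 2.99% in the knockout. MT-ND5, a complex I subunit, was the clearest, at 1934, 2411 and 2242 CPM in parental replicates 1 to 3 against 2933 and 3029 in replicates 4 and 5, and 1907, 1845 and 2021 against 2854 and 2840 in the knockout (log2 difference 0.50, SE 0.057, edgeR adjusted p = 2.07e-06). MT-ND4 differed by 0.37 and MT-CO1 by 0.20, whereas MT-ATP6 differed by 0.00 and did not pass. MT-ATP8 was the one called lower (-0.14), a call that was lost with scaling by library size alone (-0.10), without the filter on low counts (-0.08) and without knockout replicate 5 (-0.12). The large ribosomal RNA MT-RNR2 differed by 0.37. The 16 tested mitochondrial transfer RNAs, which are far shorter than a usual library fragment, had a median of -0.92 (parental -0.87, knockout -0.87), with 11 lower and 5 not passing.

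Replication-dependent histone genes, whose mRNAs mostly lack a poly(A) tail, were low in all libraries, and their summed level was lower in replicates 4 and 5. Of 69 listed genes, 44 passed the filter, and of these 18 were lower, 1 was higher and 25 did not pass the test (median -0.29, parental -0.34, knockout -0.37, GC-adjusted -0.22). The share called lower, 40.9%, was close to the 34.1% over all genes tested. The share called higher was 2.27% beside 32.2%. Summed over the list, they came to 53.2 to 55.2 CPM in parental replicates 1 to 3 against 46.1 to 48.5 in replicates 4 and 5, and 80.2 to 97.0 against 69.9 to 71.3 in the knockout. The knockout libraries thus exceeded the parental ones in both sets, and within each genotype the sets did not overlap. The most abundant members, H2BC12 and H2AC25, differed by -0.26 and -0.55. H4C3, 1 of many genes for the same histone H4 protein, was the exception, at 2.53, 3.13 and 2.099 CPM in parental replicates 1 to 3 against 4.63 and 6.605 in replicates 4 and 5, and 2.12, 1.27 and 2.16 against 4.39 and 4.69 in the knockout (log2 difference 1.202, SE 0.15, edgeR adjusted p = 9.87e-06). Near-identical histone paralogs can exchange reads in the deposited estimates, so single members are uncertain.

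Genes listed as replication-independent histones were mostly lower as well. Of these 11 genes, 9 were lower and 2 (H2AZ2 and H3-3A, both at -0.05) did not pass. Their median was -0.29 (GC-adjusted -0.33), and the lowest member differed by -3.26. H2AX, the histone that is phosphorylated at DNA breaks, stood at 507.5, 448 and 480 CPM in parental replicates 1 to 3 against 348 and 354 in replicates 4 and 5, and 420, 436 and 427 against 271 and 252 in the knockout (-0.58). Its transcript GC content of 66.4% lies in the highest quintile, and its GC-adjusted difference was 0.08. H2AJ differed by -0.80 and H2AZ1 by -0.24. The machinery that makes histone mRNA ends went the opposite way, with 7 of 11 genes higher and 2 lower (median 0.25, GC-adjusted 0.08). NPAT, the activator of histone gene transcription, stood at 17.8, 19.45 and 18.25 CPM in parental replicates 1 to 3 against 30.75 and 29.96 in replicates 4 and 5, and 16.1, 13.98 and 14.4 against 27.7 and 27.1 in the knockout (0.80). Its partner CASP8AP2, shown above, stood at 22.4, 23.05 and 21.6 CPM in parental replicates 1 to 3 against 34.8 and 35.00 in replicates 4 and 5, and 16.5, 15.15 and 15.1 against 24.9 and 25.2 in the knockout. LSM10, a small protein of the U7 particle that guides the cleavage, differed by -0.59.

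Factors that lengthen, bind or shorten poly(A) tails were mostly higher, with 15 of 19 higher, 1 lower and 3 not passing (median 0.39). CNOT1, the scaffold of the deadenylase complex, stood at 348, 361 and 351 CPM in parental replicates 1 to 3 against 497 and 492.5 in replicates 4 and 5, and 304, 269 and 255 against 446 and 460 in the knockout (0.60). CNOT6L, a deadenylase, differed by 0.82, and PABPN1, the nuclear poly(A)-binding protein, by -0.32. The class had a median GC content of 41.4%, and its median after the GC adjustment was 0.02. KRAB zinc finger genes, repressors of transposons and other targets that are likewise A- and T-rich (median 41.4%), had the largest share of higher genes among the lists: 78 of 92 tested were higher and 3 lower, with a median of 0.43 (parental 0.35, knockout 0.49, GC-adjusted 0.11). ZNF431 stood at 8.51, 9.16 and 7.74 CPM in parental replicates 1 to 3 against 13.2 and 13.4 in replicates 4 and 5, and 8.09, 7.54 and 7.73 against 13.2 and 13.2 in the knockout (0.71), and ZNF268 differed by 0.67. The 3 lower were ZNF212, ZNF324 and ZNF394, at -0.26 to -0.14.

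Among non-coding RNAs, most of those listed as nuclear or regulatory were higher in replicates 4 and 5. Transcripts annotated inside introns were more often higher than lower. Of 12 long non-coding RNAs listed as nuclear or regulatory, 7 were higher, 2 lower and 3 did not pass (median 0.39, parental 0.36, knockout 0.42, GC-adjusted 0.07). MALAT1, a nuclear speckle RNA (chr11:65497688-65506516), stood at 250, 280 and 289.5 CPM in parental replicates 1 to 3 against 445 and 415 in replicates 4 and 5, and 279, 229 and 267 against 535 and 515 in the knockout (log2 difference 0.84, SE 0.078, edgeR adjusted p = 1.05e-06). NORAD, which binds PUMILIO proteins, differed by 0.43, OIP5-AS1 by 0.56 and TUG1 by 0.54. NEAT1, the scaffold of paraspeckles, differed by -0.23 and did not pass (edgeR adjusted p = 0.0706), although it did with DESeq2 on all 10 libraries (-0.22) and without knockout replicate 1 (-0.28) or knockout replicate 2 (-0.27). Of 181 sense intronic transcripts, 80 were higher and 10 lower (median 0.48, parental 0.37, knockout 0.56, GC-adjusted 0.24), and of 54 sense overlapping transcripts, 25 were higher and 4 lower (median 0.39). The deposited estimates are not stated to use strand, so reads from introns of a host gene and from such transcripts, or from antisense partners, cannot be told apart.

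Processed pseudogenes, intronless copies of mRNAs, went the other way: of 497, 58 were higher and 248 lower (median -0.54, parental -0.56, knockout -0.59, GC-adjusted -0.53). The larger non-coding classes hardly moved in the middle. Antisense transcripts had 309 higher and 403 lower of 1675, with a median of -0.03 that turned to 0.03 without the filter on low counts. Long intergenic RNAs had 328 higher and 210 lower of 1418, with a median of 0.09 that fell to 0.01 when at least 1 CPM was asked for. Both called fewer genes than the background shares. Host genes of small nucleolar RNAs, many of which carry the same 5′ signal as ribosomal protein genes, had 5 higher and 16 lower of 26 (median -0.24). SNHG7 and SNHG32 differed by -0.62 and -0.59, and SNHG16 and SNHG1 by 0.40 and 0.24. Of 20 small nuclear RNAs, 4 were higher and 10 lower (median -0.50), and of 54 small nucleolar RNAs, 14 were higher and 7 lower (median 0.05).

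**Figure D4:**
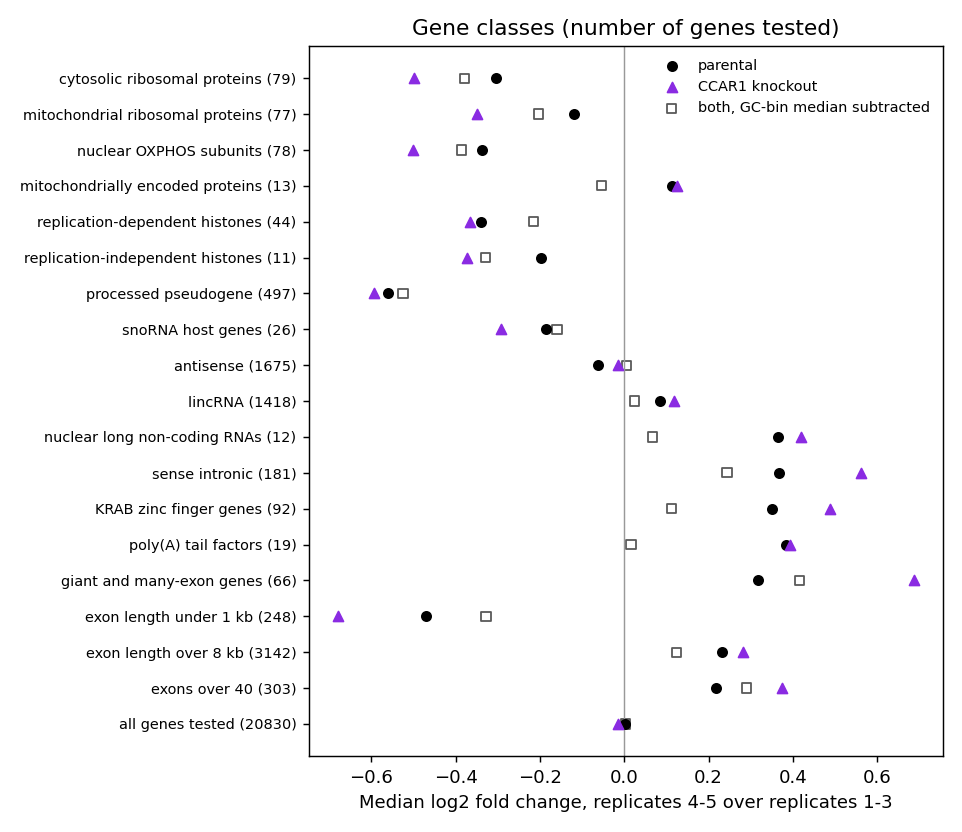
Median log2 difference (replicates 4 and 5 over replicates 1 to 3, x axis) of each gene class (y axis, number of genes tested in brackets) in the parental libraries (circles), in the knockout libraries (triangles) and in both after the GC adjustment (open squares). Ribosomal protein, oxidative phosphorylation and processed pseudogene classes lie below 0 in both genotypes. Giant, KRAB zinc finger and poly(A) factor genes lie above 0 in both. So does the list labelled nuclear long non-coding RNAs, whose members are nuclear or regulatory. The giant genes stand at 0.32 and 0.69 in the 2 genotypes.

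Genes of other tissues marked replicates 1 to 3. Most listed genes of skeletal muscle, red blood cells and liver averaged under 1 CPM in replicates 4 and 5. These were 32 of the 37, 19 of the 19 and 35 of the 38 in the counts. Their summed messenger RNA was higher in all 6 libraries of replicates 1 to 3, in both genotypes. The labels name RPE p53-/- cells alone, and the source of these messenger RNAs was not tested. Bulk levels do not tell if any cells of these tissues were present, nor fewer cells of a type from less RNA per cell. Many of these genes passed the filter on low counts only through replicates 1 to 3, so the number that passed the test carries no weight, and the levels are described over all members with under 1 CPM in replicates 4 and 5, a limit chosen after the levels had been seen to set aside genes that the cells themselves express.

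For skeletal muscle, 36 of 38 listed genes passed the filter and 32 of the 37 in the table were under 1 CPM in replicates 4 and 5. These 32 summed to 669, 797 and 588 CPM in parental replicates 1 to 3 against 2.41 and 2.17 in replicates 4 and 5, and to 720, 302 and 534 against 2.84 and 2.84 in the knockout. The means were 602 and 2.56 CPM, a ratio of 235. The limit of 1 CPM picks genes that are low in replicates 4 and 5. This ratio is a description of those genes alone. Over all 37 genes the sum lay between 1042 and 1555 CPM in replicates 1 to 3 and between 594 and 643 in replicates 4 and 5. The means over all 37, 1377 and 618 CPM, had a ratio of 2.23. At its highest the sum of the 32 genes was 0.0784% of a library's counts, and its part in the class differences above was not tested. ACTA1, the actin of skeletal muscle (chr1:229431245-229434098), stood at 137, 157 and 93.5 CPM in parental replicates 1 to 3 against 0.159 and 0.0851 in replicates 4 and 5, and 155, 63.9 and 83.8 against 0.127 and 0.118 in the knockout. MYH7, the slow-fibre and cardiac myosin (chr14:23412738-23435718), stood at 76.5, 138.5 and 76.2 CPM in parental replicates 1 to 3 against 0.0371 and 0.00315 in replicates 4 and 5, and 117, 32.6 and 39.5 against 0.00579 and 0 in the knockout. MYH7 had 17 counts in all of replicates 4 and 5. DES, the intermediate filament desmin, stood at 32.2, 43.3 and 27.5 CPM in parental replicates 1 to 3 against 0.0318 and 0.0158 in replicates 4 and 5, and 34.2, 19.8 and 27.4 against 0.08398 and 0.0295 in the knockout. The 5 listed genes at 1 CPM or more in replicates 4 and 5 were TPM3, TNNT1, TTN, ENO3 and ATP2A1. TPM3, a tropomyosin that non-muscle cells also make, averaged 642 and 586 CPM, whereas TTN averaged 43.3 and 7.53.

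The 19 red blood cell genes, of which 15 passed the filter, were all under 1 CPM in replicates 4 and 5. They summed to 42.1, 131 and 57.4 CPM in parental replicates 1 to 3 against 0.686 and 0.577 in replicates 4 and 5, and to 50.9, 193 and 60.25 against 0.582 and 0.678 in the knockout (mean 89.2 against 0.631 CPM). HBA1 (alpha-globin) stood at 16.7, 40.9 and 21.8 CPM in parental replicates 1 to 3 against 0.0794 and 0.1135 in replicates 4 and 5, and 16.1, 60.7 and 16.1 against 0.0666 and 0.0354 in the knockout. HBG2, a gamma-globin of the fetus, stood at 13.1, 22.5 and 21.6 CPM in parental replicates 1 to 3 against 0.005295 and 0 in replicates 4 and 5, and 14.4, 7.92 and 32.9 against 0 and 0 in the knockout. HBG2 had 2 counts in all of replicates 4 and 5. HBA1 and HBA2, and HBG2 and HBG1, are near-identical copies between which reads may be split, so the sum is the firmer value.

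For liver, 26 of 38 genes passed the filter and 35 were under 1 CPM in replicates 4 and 5. The 35 summed to 48.5, 133 and 117 CPM in parental replicates 1 to 3 against 3.53 and 3.12 in replicates 4 and 5, and to 105, 133 and 72.1 against 4.52 and 5.09 in the knockout (mean 101.5 against 4.07 CPM, and 134 against 32.5 CPM over all 38). ALB, serum albumin, stood at 8.42, 24.4 and 23.9 CPM in parental replicates 1 to 3 against 0.0397 and 0.0347 in replicates 4 and 5, and 20.5, 31.8 and 17.6 against 0.0232 and 0.00885 in the knockout. By contrast CPS1, a urea cycle enzyme at over 12 CPM in every library, was higher in replicates 4 and 5, at 17.3, 17.5 and 17.7 CPM in parental replicates 1 to 3 against 27.5 and 26.9 in replicates 4 and 5, and 15.3, 13.4 and 12.6 against 23.8 and 25.05 in the knockout (0.73).

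The libraries did not rank alike for the 3 tissues. Knockout replicate 2 had the lowest muscle sum of replicates 1 to 3 (302 CPM) and the highest sum for red blood cell genes (193 CPM). Parental replicate 2 was highest for muscle (797 CPM) and second for red blood cell genes (131 CPM), and parental replicate 1 was lowest for both red blood cell (42.1 CPM) and liver genes (48.5 CPM). No order by genotype was seen: parental and knockout ranges overlapped for all 3 tissues.

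Other tissues were represented less or not at all, by the same sums. Heart genes averaged 8.27 CPM in replicates 1 to 3 against 0.553 in replicates 4 and 5, adipocyte genes 6.73 against 1.05, myeloid genes 5.43 against 0.893 and intestinal genes 3.37 against 0.785. The mean was higher in replicates 1 to 3 for 7 of 10 heart, 9 of 10 adipocyte, 15 of 17 myeloid and 8 of 14 intestinal genes. Every library of replicates 1 to 3 lay above every library of replicates 4 and 5 in 6, 6, 2 and 1 of them. Pancreas genes averaged 1.28 against 0.531 CPM and neuron and glia genes 3.12 against 2.05. Kidney genes at 0.463 against 0.670 CPM, lung genes at 0.146 against 0.155 and testis genes at 0.444 against 0.673 were not higher in replicates 1 to 3. Heart genes went the other way over all 12 members, with 455 to 493 CPM in parental replicates 1 to 3 against 542 and 557 in replicates 4 and 5, and 127.5 to 157 against 165 and 182 in the knockout. Most of that sum was ANKRD1, a muscle ankyrin-repeat protein that averaged 292 CPM in replicates 1 to 3 and 356 in replicates 4 and 5. Over all members, the means were 9.55 against 3.75 CPM for adipocyte, 71.5 against 53.7 for myeloid and 139 against 102 for neuron and glia genes. By the low members, keratinocyte genes averaged 1.61 against 0.974 CPM, lymphoid genes 1.76 against 0.946 and placenta genes 0.884 against 0.570. Over all members keratinocyte genes averaged 68.5 against 31.1 CPM. Lymphoid genes (21.76 against 30.15) and placenta genes (14.89 against 20.55) were then higher in replicates 4 and 5.

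**Figure D5:**
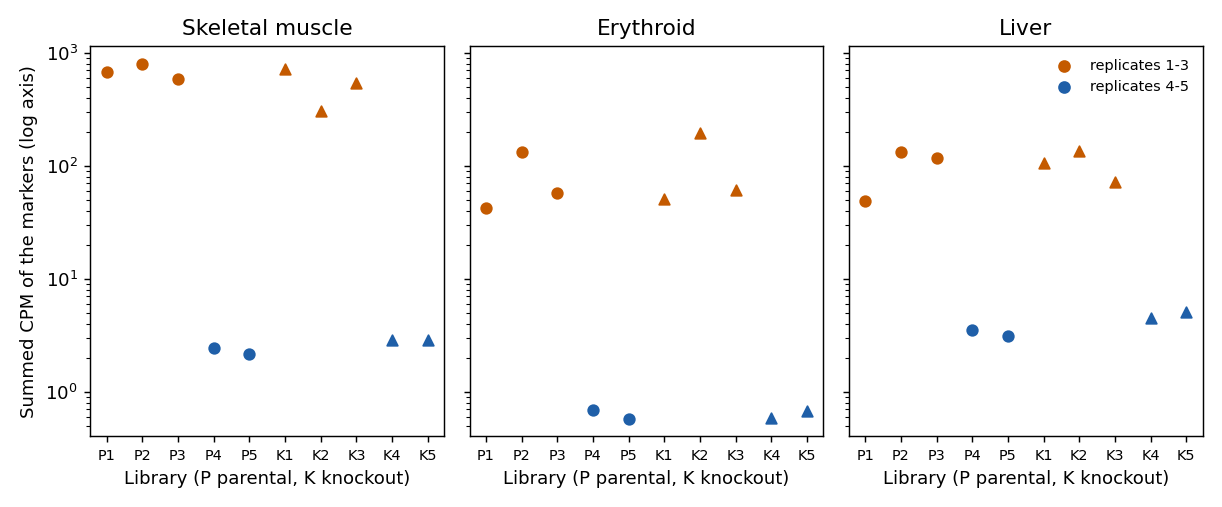
Summed CPM (y axis, log scale) of the marker genes with under 1 CPM in replicates 4 and 5, for skeletal muscle, red blood cell and liver lists, 1 point per library, P for parental and K for knockout with the replicate number. All 6 libraries of replicates 1 to 3 lie between 42.1 and 797 CPM and all 4 of replicates 4 and 5 between 0.577 and 5.09 CPM.

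Outside the tissue lists, the 8 protein-coding genes with the most negative differences included RYR1 (the calcium channel of skeletal muscle, mean 9.28 against 0.00944 CPM), NRAP and LMOD2 (proteins of the sarcomere), ITIH2 (a plasma protein made by the liver), GPC3 (a fetal liver proteoglycan, 9.14 against 0.0499 CPM) and KRT19 (a keratin of simple epithelia, log2 difference -7.22). H19, an imprinted RNA abundant in fetal tissues, had the most negative difference among the long non-coding RNAs that met the naming rule. That rule asks for at least 2 CPM in either set. H19 stood at 9.87, 12.9 and 10.4 CPM in parental replicates 1 to 3 against 0.127 and 0.148 in replicates 4 and 5, and 19.2, 9.26 and 5.67 against 0.136 and 0.233 in the knockout (-6.12).

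Genes far higher in replicates 4 and 5 were fewer, and several belong to the extracellular matrix. DCN, the proteoglycan decorin (chr12:91140484-91183123), stood at 1.36, 1.19 and 1.19 CPM in parental replicates 1 to 3 against 13.6 and 9.19 in replicates 4 and 5, and 1.93, 1.71 and 0.733 against 7.31 and 9.72 in the knockout (log2 difference 2.88, SE 0.24, edgeR adjusted p = 4.24e-06). LUM, the related proteoglycan lumican, also on chromosome 12, stood at 0.142, 0.0533 and 0.178 CPM in parental replicates 1 to 3 against 3.91 and 2.95 in replicates 4 and 5, and 0.4835, 0.307 and 0.125 against 1.74 and 2.25 in the knockout. COL1A2, the alpha-2 chain of type I collagen, stood at 4.700, 4.83 and 5.51 CPM in parental replicates 1 to 3 against 34.6 and 15.4 in replicates 4 and 5, and 7.085, 7.365 and 3.77 against 17.9 and 13.05 in the knockout (1.85). The sets did not overlap in either genotype in any of them. The matrix list as a whole was mixed, with 20 of 36 genes higher, 7 lower and 9 not passing (median 0.19). BGN, the proteoglycan biglycan, was lower (-0.80), and COL1A1 (0.54) and COL3A1 (-0.83) did not pass. PRSS56, a serine protease of the eye, had the largest positive difference among the protein-coding genes that met the naming rule, at 0, 0 and 0.0178 CPM in parental replicates 1 to 3 against 3.32 and 2.802 in replicates 4 and 5, and 0.0186, 0.0384 and 0 against 2.75 and 0.796 in the knockout. It had 4 counts in all of replicates 1 to 3.

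The set difference can be taken in each genotype, since the 2 share no libraries, though the same fit and spread served both. Over all genes tested, Pearson's r between the 2 genotypes' differences was 0.91 (across genes, as a description). A test of the difference between the differences, the interaction of set and genotype, called 115 genes, or 0.552% of those tested, 59 with a more positive difference in the knockout and 56 with a more negative one. At an unadjusted p under 0.05 there were 3423, and the number called depended on the tool and on single libraries: DESeq2 called 1149 and limma-voom 211, while leaving out knockout replicate 1 gave 2417 and leaving out knockout replicate 5 gave 10.

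Among the listed gene classes, giant genes had the most interaction calls. Their median difference was 0.32 in the parental and 0.69 in the knockout libraries, and the interaction was called with a larger difference in the knockout for 21 of 66. Over all genes with more than 40 exons it was called larger in 28 and smaller in 1 of 303, and the median interaction, 0.20, stayed between 0.17 and 0.29 in every alternative fit. AHNAK, a giant scaffold protein, stood at 1190, 1094 and 1035 CPM in parental replicates 1 to 3 against 1442 and 1439 in replicates 4 and 5, and 818, 801 and 745.5 against 1424 and 1579 in the knockout. DYNC1H1, the heavy chain of cytoplasmic dynein, stood at 556, 594 and 524 CPM against 647 and 645, and 428, 419 and 411 against 652.5 and 731. Both were thus lower in the knockout than in the parental libraries of replicates 1 to 3, while in replicates 4 and 5 the genotypes overlapped for AHNAK and the knockout was higher for DYNC1H1 (interaction 0.55 and 0.51, edgeR adjusted p = 0.0248 and 0.0233, called in 14 and 13 of 19 alternative fits). These genes, among the most abundant of the list, were chosen after their values were seen. The median deviation of genes with more than 40 exons was -0.13, -0.25 and -0.26 in knockout replicates 1 to 3 against -0.03, 0.01 and -0.01 in parental replicates 1 to 3, while replicates 4 and 5 of both genotypes lay between 0.15 and 0.21.

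Single genes with the largest interaction were mostly of other kinds. FHL1, a LIM-domain protein abundant in muscle, differed between sets by -3.88 in the parental and -0.86 in the knockout libraries (interaction 3.03, edgeR adjusted p = 0.000564), and stood at 27.8, 26.1 and 22.04 CPM in parental replicates 1 to 3 against 1.79 and 1.64 in replicates 4 and 5, and 39.00, 28.9 and 30.01 against 17.99 and 18.1 in the knockout. HLA-DRB1, a class II antigen-presenting molecule, differed by -3.56 and -0.70, and ATP8A1, a phospholipid flippase, by 0.72 and -1.49. These 3 were called in every alternative fit that tested them. ABCB1, the multidrug efflux pump, differed by 0.12 and -1.30 and was called in 17 of 18 fits. CCAR1 itself differed by 0.40 and 0.44, with no interaction called (edgeR adjusted p = 0.836).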

How the data were processed

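RNA-seq of poly(A) RNA was measured in 10 libraries. The authors deposited estimated counts per gene, not scaled for depth, made with kallisto 0.48.0 on hg38 per the submitters' processing notes; the use of strand, the gene models and how transcripts were summed to genes: not given in the sources used here. Estimated counts were rounded, and genes that pass edgeR's filterByExpr (20830 of 62700) were scaled by TMM and tested with edgeR 4.0.16's quasi-likelihood test (R 4.3.3), with genotype as a term and Benjamini-Hochberg adjustment at 0.05. CPM values use the TMM-scaled totals. A further fit of all 10 libraries gave both each genotype's difference and the interaction of set and genotype, with a shared estimate of spread. GC content, exons, span and biotype came from GENCODE release 29 (GRCh38), which matched 94.4% of genes tested. Coordinates and exon sequences are from the same release and build. No 2 libraries of a group agreed within sampling noise, so none were merged.

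The genes named in the text follow a rule: CCAR1; in each list the 3 most abundant members and up to 2 each way with the smallest adjusted p; over all genes the largest differences each way; and the largest interactions. Others named were chosen after their values were seen. The division, the gene lists and the tests were chosen with earlier results of these data known. The statistics were tested on simulated data. Alternatives were other scalings, filters, DESeq2 1.42.0, limma 3.58.1 voom, thinned counts, a replicate block and leaving out each library.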

Additional observations from a re-analysis of the deposited data

Results flagged for a closer look

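In 84 groups of 4 or 6 libraries examined for a library that stands alone, 6 were found, and chance gives about 5%. Parental replicate 4 was the deepest library, at 385.4 M counts against 327.1 M in the next. It also had the lowest sum for nuclear subunits of oxidative phosphorylation among replicates 4 and 5, at 6602 CPM against 6932 in the next. THBS2, a matrix glycoprotein, stood at 4.469 CPM in parental replicate 4 against 2.203 in the next library of that set. CPLX2, a synaptic protein, had 0.005295 CPM in parental replicate 4 and no counts in the other libraries of replicates 4 and 5. NRAP, a muscle protein, had 0.05042 CPM in parental replicate 5 against 0.005897 in the next. BLOC1S5-TXNDC5, a read-through transcript that shares exons with its neighbours, had 1.538 CPM in knockout replicate 3 against 0.4114 in the next of replicates 1 to 3.

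The set difference was called different between the genotypes (interaction of set and genotype, edgeR adjusted p under 0.05) in the following genes, with the knockout's difference minus the parental one on the log2 scale. It was 3.029 for FHL1, 2.861 for HLA-DRB1, 2.317 for HLA-DRA, 2.114 for ALPK3, 0.5485 for AHNAK, 0.5116 for DYNC1H1, 0.4253 for MKI67 and 0.421 for COL12A1. It was -2.216 for ATP8A1, -2.018 for LGR5, -1.434 for FOXA1, -1.422 for ABCB1 and -0.3361 for IER5. MKI67, the proliferation antigen Ki-67, had set differences of 0.33 in the parental and 0.75 in the knockout libraries, and COL12A1, a fibril-associated collagen, 0.37 and 0.79. LGR5, a receptor for R-spondins, had 0.28 and -1.74. HLA-DRA, ALPK3, LGR5, FOXA1, IER5, MKI67, COL12A1, AHNAK and DYNC1H1 lost the call in some of the alternative fits, between 5 and 12 of the 18 or 19 in which each was tested.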

How the results depend on the processing

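The number of genes called between the sets lay between 11027 (at least 1 CPM in 4 libraries) and 14977 (no filter on low counts) over all alternatives, and between 12760 and 13827 when 1 library was left out. The interaction count was less stable: 1256 without a filter, 1149 with DESeq2, 211 with limma-voom, and from 10 to 2417 when 1 library was left out. It was 12 without parental replicate 2, 11 without parental replicate 4, 20 without parental replicate 5, 2417 without knockout replicate 1, 19 without knockout replicate 2 and 10 without knockout replicate 5. The cause was not tested.

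With the replicate block as a random term (limma-voom, within-block correlation -0.171), 14730 genes were called between the sets. With a fixed replicate block, 45 were called for the interaction. A fixed block could not be fitted for the set difference, since each number lies in 1 set. Libraries of the same number in the 2 genotypes did not deviate together over all genes (correlations of residuals from -0.02 to 0.01). The labels do not say if they were handled together, and this measure cannot settle it.

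With scaling by library size alone, median differences were -0.3584 (span under 10 kb), 0.2825 (span over 300 kb), 0.3024 (exon length over 8 kb), 0.4726 (GC quintile 1) and -0.4616 (GC quintile 5). Without a filter, which moved the median of all genes to 0.1763, they were 0.1574 (long intergenic), 0.03141 (antisense), -0.338 (span under 10 kb), 0.3031 (span over 300 kb), 0.3585 (over 40 exons), 0.3238 (exon length over 8 kb), 0.4945 and -0.4409 (GC quintiles 1 and 5). At 1 CPM or more they were 0.005489 (long intergenic), -0.1336 (antisense), 0.2894 (span over 300 kb) and 0.3725 (over 40 exons). Thinned counts gave -0.6127 for processed pseudogenes. The GC adjustment, added after seeing the data, gave -0.05327 for mitochondrially encoded proteins, 0.0252 (long intergenic), -0.1157 (span under 10 kb), 0.08679 (span over 300 kb), -0.3282 (exon length under 1 kb), 0.1241 (over 8 kb) and, by its construction, 0.0008584, -0.0003897 and -0.001606 for GC quintiles 1, 2 and 5. Under the alternatives that leave out no library, 12 of 12 summed levels stayed within the spread between libraries. Of the class medians in these fits, 209 stayed within it, 49 moved beyond it and 2 reversed from a main value larger than it. The sign changed in 5 fits of 3 medians: antisense with library size alone (0.009951), without a filter and with the GC adjustment (0.005811), and mitochondrially encoded proteins and GC quintile 2 with the GC adjustment. Depth of replicates 1 to 3 limits genes near 0 there: 3 counts are the floor.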

Other observations

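Lists outside the classes above were mostly mixed. Of 41 genes of the G1/S transition, 20 were higher in replicates 4 and 5 and 13 lower (median 0.07), and of 44 mitotic genes, 28 were higher and 9 lower (median 0.18, GC-adjusted 0.05). Hypoxia and glycolysis genes were more often lower, with 22 lower and 7 higher of 34 (median -0.21, GC-adjusted -0.02). Among them GAPDH and ALDOA, glycolytic enzymes, each differed by -0.36, and P4HA1, a collagen prolyl hydroxylase, by 0.44. Immediate early genes had 15 lower and 1 higher (KLF6) of 27 (median -0.26, GC-adjusted -0.10). JUNB differed by -0.61, DUSP1, a phosphatase of MAP kinases, by -0.51, and BTG2 by -3.60, whereas FOS (-0.44) and EGR1 (-0.29) did not pass. Cholesterol synthesis genes had 10 higher and 11 lower of 25 (median -0.03), interferon-stimulated genes 11 higher and 9 lower of 32 (median -0.05) and heat shock genes 9 higher and 10 lower of 20 (median -0.08).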
